A study of Sus scrofa with 2 samples.

Results

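UPTI-high cells are barcodes of pig endometrium in which the gene UPTI (ENSSSCG00025063749) had at least 5 UMIs and at least 0.1% of the barcode's UMIs, a UMI being 1 counted RNA molecule. The rule was met by 74 of 25138 barcodes, 69 of 15093 in library 2 and 5 of 10045 in library 1. The cells were chosen by their UPTI counts, so its level in them is given as a description only. The 2 libraries were made from the endometrium, which lines the uterus, by droplet capture of single cells. The study's design describes 2 inseminated Yorkshire sows of 3 years, 1 at day 7 and 1 at day 13 of gestation and names no drug or engineered allele. The sample labels do not tie a library to a day, so the libraries are called library 2 and library 1 and neither is given a stage; the stage wording in the names of the deposited matrices was not used. Each library is 1 sample, so nothing here has a replicate check, no difference was tested, and every interval covers counting error only.

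The luminal epithelium is the single sheet of cells that faces the uterine cavity, and the glands below it pour secretions into that cavity. In the pig the embryo does not invade the uterus but attaches to the luminal sheet. UPTI, the uterine plasmin/trypsin inhibitor, is a Kunitz-type protease inhibitor known from pig uterine secretions. SPP1 encodes osteopontin, a secreted ligand of integrins known from the luminal epithelium of pregnant pigs, and PTGS2 encodes the inducible enzyme that starts prostaglandin synthesis. STC1 encodes the glycoprotein hormone stanniocalcin, AGR2 a disulfide isomerase of the endoplasmic reticulum, and CLDN8 a claudin of tight junctions.

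Library 2 held 87514969 UMIs with a median of 4335 per barcode, and library 1 held 45388759 UMIs with a median of 3431. Called doublets, barcodes that look like 2 cells in 1 droplet, were removed before the comparisons. This left 54 UPTI-high cells among 12669 cells of library 2, a share of 0.426% (exact Clopper-Pearson 95% interval 0.320 to 0.556%). In library 1 it left 5 among 8928 cells, a share of 0.0560% (0.0182 to 0.131%). Among epithelial-like cells alone the shares were 1.50% (47 of 3134 cells) in library 2 and 2.16% (5 of 231 cells) in library 1, with intervals of 1.10 to 1.99% and 0.706 to 4.98% that overlap. These bases are unlike: 567 ciliated cells of library 2 formed a class of their own and are left out, while no ciliated cluster was named in library 1. Ciliated markers summed to 411 CPM in the other epithelial-like cells of library 1 and 18.4 CPM in those of library 2. The libraries shared 48 barcode sequences, and 0 of them were UPTI-high. Ribosomal protein genes took 5.95% of the UMIs of UPTI-high cells in library 2 and 20.7% in library 1, against 5.74% and 22.3% in the other epithelial-like cells of the same libraries.

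Most UPTI UMIs lay in UPTI-high barcodes, which follows in part from choosing the barcodes by their UPTI counts. Of its 11131 UMIs in library 2, 91.6% lay in the 69 UPTI-high barcodes, called doublets included, and 9241 UMIs lay in the 54 cells kept. Of its 333 UMIs in library 1, 63.1% lay in the 5 UPTI-high cells. The 54 cells of library 2 had 6 to 749 UPTI UMIs with a median of 109, which was 0.117 to 6.90% of a cell's UMIs with a median of 2.05%. In library 1 the 5 cells had 19 to 68 UPTI UMIs with a median of 40, or 0.165 to 0.420% of their UMIs. Just inside the rule in library 2 were barcodes at 0.117% and 0.120%, and just outside it a barcode with 5 UMIs at 0.0935%. In library 1 the lowest inside was at 0.165%, and 2 epithelial-like cells with 13 UMIs each lay just outside at 0.0998% and 0.0985%. Outside the UPTI-high cells, library 2 had UPTI at a low level in every named cell class, from 2.80 CPM (UMIs per 1000000 UMIs; 2 UMIs in all) in dividing cells to 21.9 CPM in T or NK cell-like cells, with 9.99 CPM in the other epithelial-like cells. In library 1 the other epithelial-like cells were at 25.8 CPM and the 8 non-epithelial classes at 0 to 1.48 CPM.

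**Figure D1:**
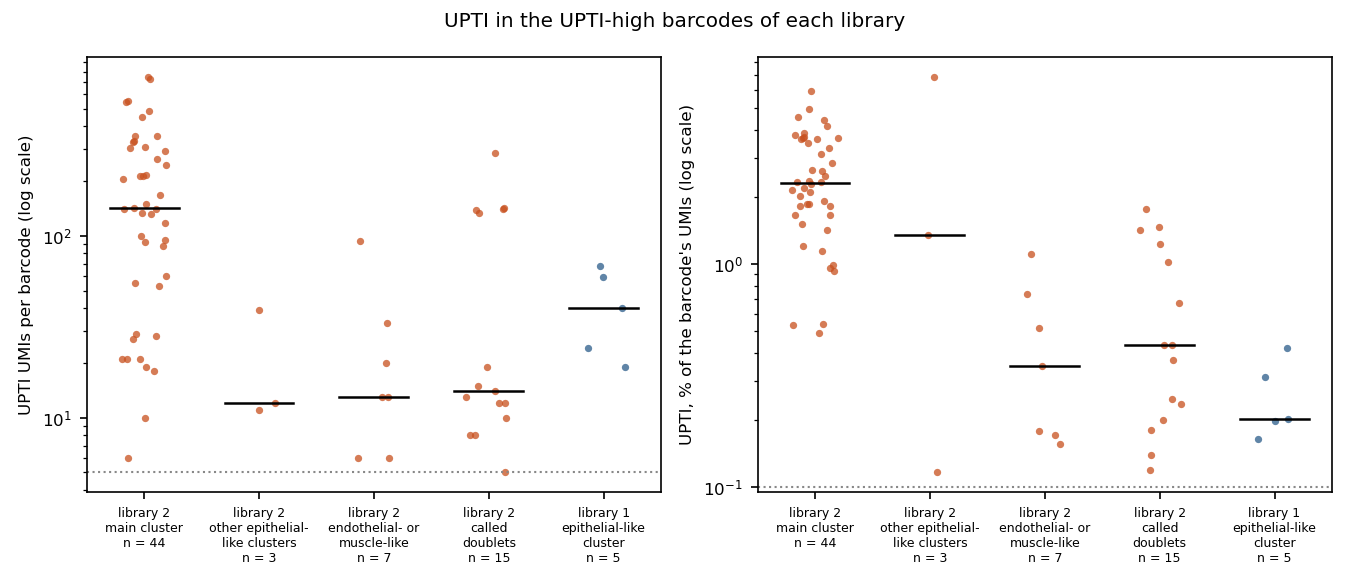
UPTI UMIs per barcode (left) and UPTI as a percentage of the barcode's UMIs (right), both on log axes, for each UPTI-high barcode of library 2 (orange) and library 1 (blue), split by the cluster that holds it. Black lines are medians and dotted lines the rule's minimum of 5 UMIs and 0.1%; the main cluster of library 2, cluster 30, has a median of 141.5 UMIs and the 5 cells of library 1 a median of 40.

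Clustering on 2000 variable genes put most of these cells together. In library 2, cluster 30 held 44 of the 54, and only 3 of its 47 cells were not UPTI-high. Its UPTI-high cells had a median of 141.5 UPTI UMIs (2.30% of their UMIs). With UPTI left out of the clustering, 1 cluster of 45 cells held 42 UPTI-high cells of library 2. Of the other 10 cells, 6 lay in blood endothelial-like clusters with 6 to 94 UPTI UMIs, 1 in a smooth muscle-like cluster with 6, and 3 in other epithelial-like clusters. The 6 endothelial cells carried PLVAP, a capillary endothelial gene, at 1146 CPM, against 72.5 CPM in the UPTI-high cells of cluster 30, and their KRT8 was at 149 CPM against 892 CPM. Another 15 UPTI-high barcodes of library 2 were called doublets, 0.619% of the 2423 called there. These had 5 to 286 UPTI UMIs and the fibroblast collagen gene COL3A1 at 2571 CPM, against 295 CPM in the UPTI-high cells of cluster 30. The part of mixed droplets in the UPTI values of these 2 sets was not tested. In library 1 all 5 cells lay in cluster 12, the epithelial-like cluster of that library. At a finer clustering (resolution 2.0), where UPTI was not left out, 1 cluster held all 5 of them, with 13 cells of library 1. It also held 45 of the 54 UPTI-high cells of library 2. With UPTI left out, the 5 cells lay in another cluster than the 42 UPTI-high cells of library 2 named above. With a stricter filter of 1000 UMIs and 500 genes they were again apart, in a cluster with 0 cells of library 2. Whether the cells of the 2 libraries group together thus depends on the setting.

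The label was checked against markers. Epithelial markers were present in the UPTI-high cells of library 2 as in its other epithelial-like cells. KRT8, a keratin gene of simple epithelia, was at 797 CPM in UPTI-high cells and 483 CPM in the others, and KRT18, its keratin partner, at 529 CPM in UPTI-high cells and 416 CPM in the others. CLDN7, a claudin gene, was at 727 CPM in UPTI-high cells and 951 CPM in the others, and ESRP1, an epithelial splicing regulator gene, at 184 CPM in UPTI-high cells and 101 CPM in the others. A second list of luminal genes gave no single direction. LGALS3, a galectin gene, was higher at 2157 CPM in UPTI-high cells against 311 CPM in the others, and the immune checkpoint gene VTCN1 was at 50.7 CPM in UPTI-high cells against 4.53 CPM in the others. WNT7A, a Wnt ligand gene of luminal epithelium, had 4 UMIs in the 54 cells and 0 UMIs in the 3087 others. MSX1, a homeobox gene of uterine epithelium, was lower at 121 CPM in UPTI-high cells against 455 CPM in the others, and IHH, the hedgehog ligand gene, at 14.5 CPM in UPTI-high cells against 32.8 CPM in the others. Trophoblast markers, which would mark embryo tissue, summed to 155 CPM in UPTI-high cells and 141 CPM in the others, and 6 of the 10 with a symbol were at 0 UMIs in UPTI-high cells, where 0 UMIs cannot tell their level from that of the others. DAB2, an endocytic adaptor gene of that list, was higher at 86.9 CPM in UPTI-high cells, with a log2 ratio of 2.99 and a lower 95% bound of 2.44. In the UPTI-high cells of cluster 30 DAB2 was at 55.7 CPM. GATA2, a transcription factor gene of the same list, was lower at 58.0 CPM in UPTI-high cells and 119 CPM in the others (log2 ratio -1.04, -1.69 to -0.47). The similar sums thus hide members that went both ways. Blood endothelial markers summed to 729 CPM in UPTI-high cells (371 CPM in those of cluster 30) and 155 CPM in the other epithelial-like cells. Every member with a symbol but VWF, which had 1 UMI, had a higher level in UPTI-high cells, ACKR1 with a ratio interval that includes 0. PLVAP was at 174 CPM in UPTI-high cells and 26.6 CPM in the others, and FLT1 at 109 CPM and 10.6 CPM. CDH5 was at 60.4 CPM in UPTI-high cells (36.2 CPM in those of cluster 30) and 4.95 CPM in the others. Stromal fibroblast markers summed to 1104 CPM in UPTI-high cells and 422 CPM in the others, while erythroid markers were at 0. The part of such other-cell RNA in the values was not tested. Of the luminal genes LGALS3, VTCN1 and WNT7A were thus higher and MSX1 and IHH lower. LGR5, another gene of that list, was also higher, on 3 UMIs (log2 ratio 4.69, 2.07 to 6.92). IHH rested on 6 UMIs, with a log2 ratio interval of -2.63 to -0.048. The luminal list summed to 2369 CPM in UPTI-high cells, most of it LGALS3, and 809 CPM in the others. Its members went both ways, so the label luminal-like is not used and the cells are called UPTI-high.

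The 5 markers named beside UPTI for these cells, SPP1, PTGS2, STC1, AGR2 and CLDN8, were counted in single cells. Cells were thinned to 1000 UMIs so that depth could not set the shares, which left 51 UPTI-high, 2897 other epithelial-like and 753 T or NK cell-like cells of library 2. AGR2 then had a UMI in 58.8% of UPTI-high cells (exact 95% interval 44.2 to 72.4%), 1.10% of other epithelial-like cells and 0.133% of T or NK cell-like cells, a class that should lack it. SPP1 had a UMI in 33.3% of UPTI-high, 0.587% of other epithelial-like and 0.398% of T or NK cell-like cells. PTGS2 was found in 33.3% of UPTI-high and 0.242% of other epithelial-like cells. STC1 was found in 31.4% of UPTI-high and 0.104% of other epithelial-like cells, and CLDN8 in 31.4% of UPTI-high and 0.345% of other epithelial-like cells. PTGS2, STC1 and CLDN8 each had a UMI in 0 of 753 T or NK cell-like cells (95% interval up to 0.489%). Each of these shares in UPTI-high cells was above the share in T or NK cell-like cells, which serves as the background. The 5 markers were named with earlier results of these data known, so the higher shares are a description and no evidence by themselves. At least 3 of the 5 markers had a UMI in 16 of the 51 thinned UPTI-high cells (31.4%), all 5 in 1 and none in 10. Without thinning, at least 3 of the 5 markers had a UMI in 38 of 54 UPTI-high cells (70.4%; median depth 6007 UMIs). The same held for 6 of 3087 other epithelial-like cells (0.194%; 4546 UMIs) and 0 of 833 T or NK cell-like cells (95% interval up to 0.442%; 1663 UMIs). Without thinning all 5 were seen in 20 of the 54 cells and none in 6. Their per-cell counts were wide: AGR2 ran from 0 to 38 UMIs with a median of 7.5, and SPP1 from 0 to 37 with a median of 2.

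The main comparison set the 54 UPTI-high cells of library 2, with 414056 UMIs in sum, against its 3087 other epithelial-like cells, with 21418874 UMIs. Of 5370 genes with a symbol, at least 20 UMIs and at least 20 CPM in 1 group, 931 were at least 2-fold higher in UPTI-high cells, 17.3% of genes. Another 505 were at least 2-fold lower, 9.40% of genes. The median log2 ratio was 0.073. These counts depend on scaling: with TMM factors, which move every log2 ratio by -0.29, 712 genes were at least 2-fold higher and 825 lower, so higher genes made up 46.3% of the calls against 64.8%. The ratios named next are larger than that shift.

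The highest ratios belonged to genes with 0.140 to 10.0 CPM in the rest of the epithelium. SFN (ENSSSCG00025035134), the epithelial 14-3-3 sigma gene, was at 471 CPM in UPTI-high cells (195 UMIs in 34 of 54 cells) and 0.140 CPM in the others (3 UMIs), a log2 ratio of 11.72 with a counting interval of 10.15 to 14.01. NMU, which encodes the peptide neuromedin U, was at 1751 CPM in UPTI-high cells and 1.35 CPM in the others (10.34, 9.80 to 10.93) and had a UMI in 47 of 54 cells. S100A2, a calcium-binding protein gene of epithelia, was at 1307 CPM in UPTI-high cells and 1.35 CPM in the others (9.91, 9.38 to 10.51). TRPV5, which encodes an epithelial calcium channel, was at 688 CPM in UPTI-high cells and 1.59 CPM in the others with a UMI in 43 of 54 cells, and CYP24A1, the vitamin D-degrading enzyme gene, at 106 CPM in UPTI-high cells and 0.700 CPM in the others. UPK3BL2, a uroplakin-like gene, was at 101 CPM in UPTI-high cells and 0.280 CPM in the others, and PDZK1IP1, whose product binds a membrane scaffold, at 138 CPM in UPTI-high cells and 0.514 CPM in the others. CLDN8 was at 415 CPM in UPTI-high cells and 2.05 CPM in the others, a log2 ratio of 7.66. AGR2 was at 1355 CPM in UPTI-high cells and 10.0 CPM in the others, SPP1 at 580 CPM in UPTI-high cells and 5.88 CPM in the others, STC1 at 386 CPM in UPTI-high cells and 0.934 CPM in the others, and PTGS2 at 382 CPM in UPTI-high cells and 2.75 CPM in the others. LHFPL3, EYA2, a transcriptional cofactor and phosphatase gene, and IL1A, the interleukin 1 alpha gene, complete the 15 highest with log2 ratios of 6.83, 6.59 and 6.54. Outside the epithelium IL1A was at 389 CPM in macrophage-like cells, above the 179 CPM of UPTI-high cells. LHFPL3 was at 116 CPM in smooth muscle or pericyte-like cells (133 CPM in UPTI-high cells). EYA2 was at 112 CPM in stromal fibroblast-like cells (517 CPM in UPTI-high cells). The 15 genes were picked as the highest ratios of this comparison. That the counting intervals of the 2 groups did not overlap follows from this choice and is no further evidence. All 15 were also higher than in each of the 4 large epithelial-like clusters of library 2 taken alone and than in ciliated epithelial-like cells, EYA2 by the least with a log2 ratio of 0.75.

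**Figure D2:**
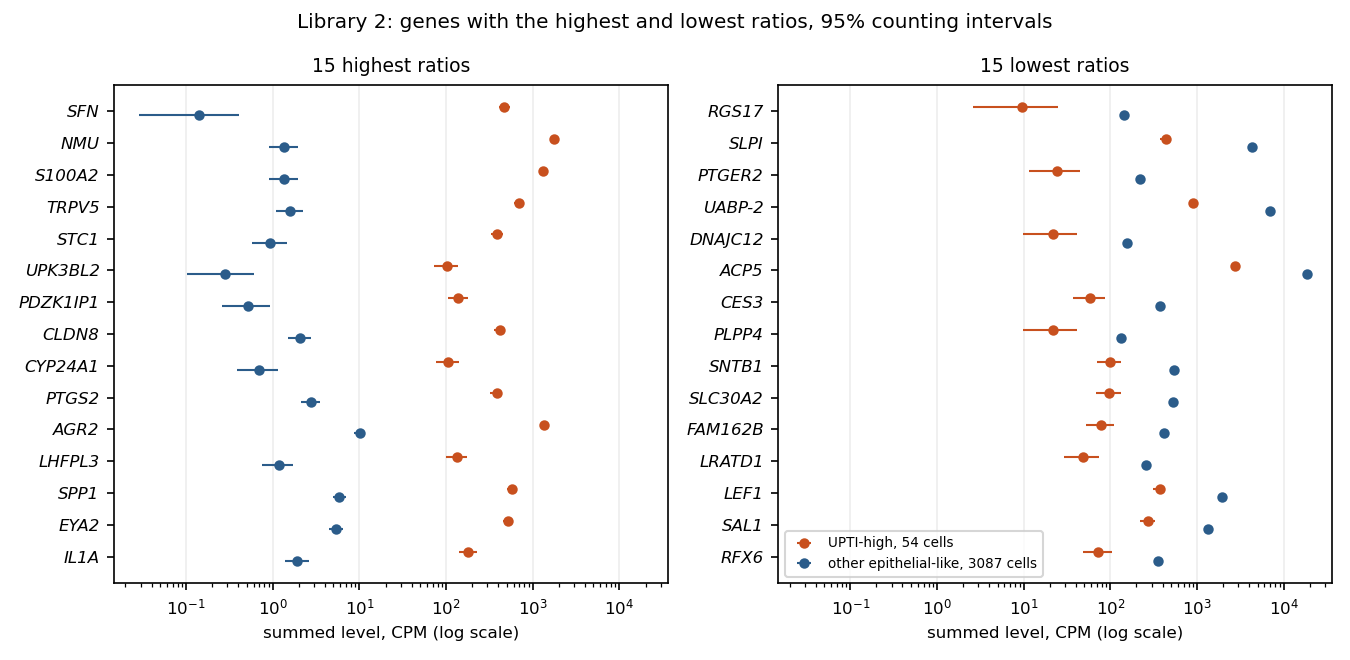
Summed level in CPM, on a log axis, of the 15 genes with the highest (left) and the 15 with the lowest (right) ratios among genes other than UPTI with at least 100 CPM in 1 group, in 54 UPTI-high cells (orange) and 3087 other epithelial-like cells (blue) of library 2. Bars are exact Poisson 95% intervals, which cover counting error only; SFN is at 471 CPM in UPTI-high cells against 0.140 CPM in the others, and ACP5 at 2746 CPM in UPTI-high cells against 18497 CPM in the others.

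Several gland genes were among the lowest. SLPI, a secreted leukocyte protease inhibitor gene, was at 435 CPM in UPTI-high cells and 4346 CPM in the others (log2 ratio -3.32, -3.54 to -3.11). ACP5 (ENSSSCG00025019530), the gene of uteroferrin, the iron-carrying phosphatase of pig gland secretions, was at 2746 CPM in UPTI-high cells and 18497 CPM in the others, and UABP-2, the gene of its associated protein, at 911 CPM in UPTI-high cells and 7028 CPM in the others. SAL1, a lipocalin gene, was at 270.5 CPM in UPTI-high cells and 1332 CPM in the others. FOXA2, a transcription factor gene needed for uterine glands in mice, was at 9.66 CPM in UPTI-high cells and 66.1 CPM in the others. For SLPI the level in UPTI-high cells lay within the range of non-epithelial cells, and for ACP5 and UABP-2 a little above it. The 9 non-epithelial classes of library 2 had 673 to 2197 CPM of ACP5, and SLPI ran from 244 to 526 CPM there. UABP-2 was at 290 to 743 CPM in those classes. The direction also depends on which epithelium is compared. Against cluster 18 (771 cells), the log2 ratios were 0.99 for SLPI, 1.29 for UABP-2 and 0.23 for ACP5, since that cluster had 218, 373 and 2340 CPM of them. Against cluster 19 UABP-2 was at 0.063 and SAL1 at 0.036, and against cluster 21 SAL1 was at 0.96.

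Other genes among the 15 lowest were RGS17, a regulator of G-protein signalling, at 9.66 CPM in UPTI-high cells and 143 CPM in the others and PTGER2, the prostaglandin E2 receptor gene EP2, at 24.2 CPM in UPTI-high cells and 219 CPM in the others. PTGER2 had a UMI in 7 of the 54 cells. SLC30A2, a zinc transporter gene, was at 96.6 CPM in UPTI-high cells and 522 CPM in the others, and the transcription factor genes LEF1 and RFX6 at 370 and 72.5 CPM in UPTI-high cells and 1936 and 351 CPM in the others. DNAJC12, CES3, PLPP4, SNTB1, FAM162B and LRATD1 had log2 ratios between -2.84 and -2.40. In library 1 the ratios of SLC30A2, DNAJC12, CES3 and LRATD1 were above 0, at 3.13, 2.42, 0.66 and 0.99, with intervals that leave out 0. RGS17 was at 1.35 there on 3 UMIs, with an interval of -0.98 to 2.99.

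Most other gland genes were lower, while RBP4 and CST6 were higher. CBR2, GPX3 and SULT2A1 had log2 ratios of -2.12, -1.68 and -1.42. ATP6V1C2 and CTSL, at -0.93 and -0.71, were lower by less than 2-fold. The 15 gland markers summed to 31039 CPM in UPTI-high cells and 62452 CPM in the others. RBP4, the retinol carrier gene, was at 19164 CPM in UPTI-high cells and 10356 CPM in the other epithelial-like cells, and its highest non-epithelial level was 1378 CPM. With a log2 ratio of 0.89 (0.86 to 0.92) it stayed under 2-fold. In library 1 RBP4 was lower, at 48.8 CPM in UPTI-high cells (4 UMIs) and 168 CPM in the others (log2 ratio -1.78, -3.66 to -0.42). CST6, the cystatin M gene, was at 633 CPM in UPTI-high cells and 224 CPM in the others, and the superoxide dismutase gene SOD3 at 1010 CPM in UPTI-high cells and 1841 CPM in the others, against at most 157 CPM outside the epithelium. TIMP2, a metalloproteinase inhibitor gene, was at 4796 CPM in UPTI-high cells and 15919 CPM in the others with a non-epithelial maximum of 2030 CPM. For SOD3 and TIMP2 too the direction depends on which epithelium is compared. Cluster 18 had 129 CPM of SOD3 and 2487 CPM of TIMP2, both below the levels in UPTI-high cells. Cluster 19 was below UPTI-high cells for SOD3, at 279 CPM, and above them for TIMP2, at 6085 CPM.

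**Figure D3:**
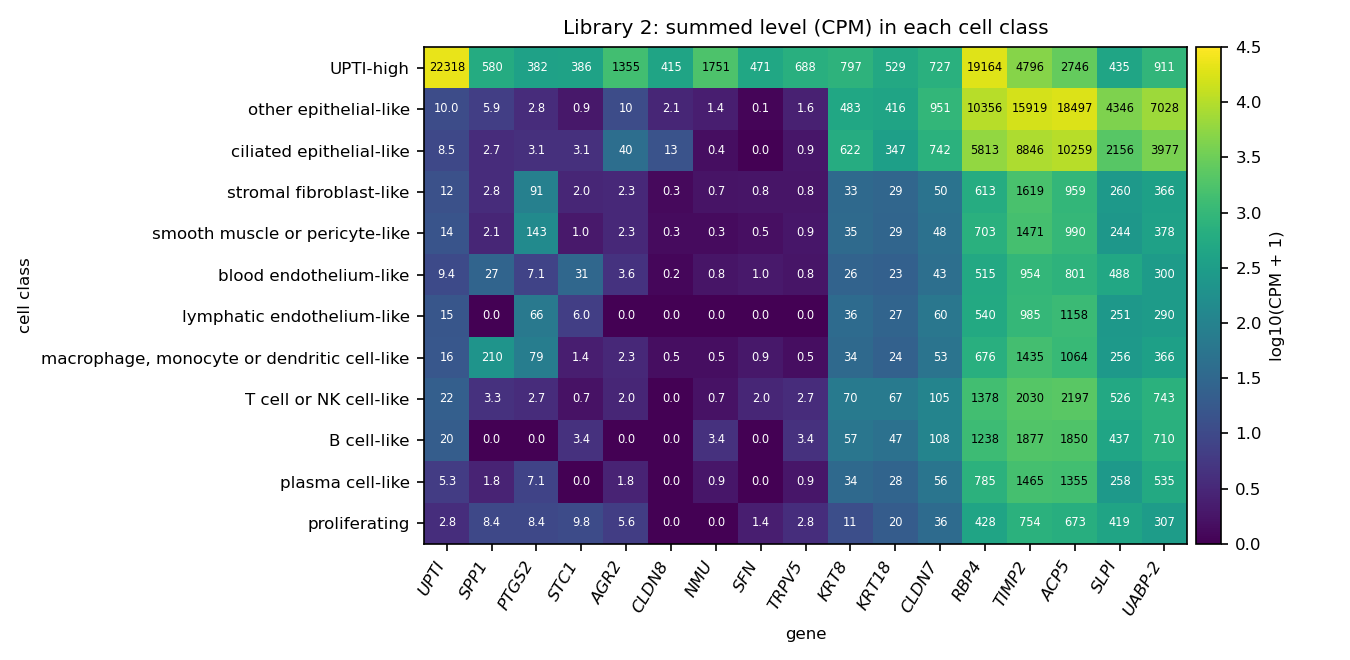
Summed level of 17 genes (columns) in each cell class of library 2 (rows), with the CPM printed in each field and its colour on a log10(CPM + 1) scale. The UPTI-high row is the brightest for UPTI, at 22318 CPM, and for SPP1, PTGS2, STC1, AGR2, CLDN8, NMU, SFN and TRPV5, while ACP5, SLPI and UABP-2 in it are near the non-epithelial rows.

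Gene lists were then read from the same comparison. The 17 lists held 319 measured genes, of which 111 were at least 2-fold higher (34.8%) and 38 at least 2-fold lower (11.9%), against the 17.3% and 9.40% of all genes. The lists were drawn up with results of these data known, so the difference from all genes is no evidence by itself. The TMM shift of -0.29 applies to every list median as well.

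Genes of protease control were split. Among 13 measured protease inhibitors 6 were at least 2-fold higher and 4 lower, with a median log2 ratio of 0.30 against 0.073 for all genes. SERPINB8, an intracellular serpin gene, was at 41.1 CPM in UPTI-high cells and 4.53 CPM in the others, while RECK, a membrane-bound inhibitor of metalloproteinases, was at 118 CPM in UPTI-high cells and 312 CPM in the others. Of 24 genes of the plasminogen system and epithelial proteases, 12 were higher and 2 lower, with a median of 1.01. PLAT, the tissue plasminogen activator gene, was at 70.0 CPM in UPTI-high cells and 7.19 CPM in the others, a log2 ratio of 3.28 (2.59 with UPTI-high cells of epithelial-like clusters only). The membrane serine protease genes TMPRSS4 and ST14 were at 38.6 and 232 CPM in UPTI-high cells and 0.887 and 54.2 CPM in the others. DPP4, a cell-surface dipeptidase gene, was at 74.9 CPM in UPTI-high cells and 3.36 CPM in the others. MME, the neprilysin gene, was lower at 29.0 CPM in UPTI-high cells and 126 CPM in the others.

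Prostaglandin genes went both ways. Beside PTGS2, PLA2G4A, whose product frees arachidonic acid, was at 198 CPM in UPTI-high cells and 7.14 CPM in the others, and PTGES, the prostaglandin E synthase gene, at 79.7 CPM in UPTI-high cells and 1.73 CPM in the others. HPGD, which encodes the enzyme that inactivates prostaglandins, was at 336 CPM in UPTI-high cells and 7.94 CPM in the others. In all, 5 of 12 measured genes were higher and 3 lower, and the median was 0.15. The lower ones were PTGER2, the phospholipase gene PLA2G10 at 53.1 CPM in UPTI-high cells and 123 CPM in the others and the thromboxane synthase gene TBXAS1, with 3 UMIs in UPTI-high cells.

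Surface and calcium genes mostly leaned 1 way. Of 15 genes of osteopontin, integrins and surface mucins 8 were higher and 0 lower, with a median of 1.02. With UPTI-high cells of epithelial-like clusters only, 7 of 14 were higher and the median was 0.59. LGALS9, another galectin gene, was at 111 CPM in UPTI-high cells and 21.1 CPM in the others, while the osteopontin receptor subunit gene ITGAV was at 155 CPM in UPTI-high cells and 282 CPM in the others, short of 2-fold. Of 20 calcium and phosphate genes 8 were higher and 0 lower, with a median of 0.82. PTHLH, the parathyroid hormone-related peptide gene, was at 89.4 CPM in UPTI-high cells and 6.58 CPM in the others and ANXA1, the annexin A1 gene, at 362 CPM in UPTI-high cells and 30.1 CPM in the others. Of 19 junction genes 4 were higher and 1 lower, with a median of 0.56. The lower one was CLDN10, another claudin gene, at 41.1 CPM in UPTI-high cells and 140 CPM in the others.

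Signalling genes held the highest list medians. Of 26 growth factors and receptors 15 were higher and 4 lower, with a median of 1.36. HBEGF and EREG, which encode ligands of the EGF receptor family, were at 437 and 99.0 CPM in UPTI-high cells and 25.5 and 8.17 CPM in the others. MET, the hepatocyte growth factor receptor gene, was at 157 CPM in UPTI-high cells, with a log2 ratio of 3.83, and FGFR2, a fibroblast growth factor receptor gene, was lower at 135 CPM in UPTI-high cells and 406 CPM in the others. Of 15 interleukin 1 and NF-kB genes 10 were higher and 1 lower, with a median of 1.30. IL1RAP and IL1R1, which encode the chains of the interleukin 1 receptor, were at 205 and 77.3 CPM in UPTI-high cells and 25.0 and 10.8 CPM in the others, and LIF, a cytokine gene, at 53.1 CPM in UPTI-high cells and 8.40 CPM in the others. IL6ST, the receptor chain through which LIF signals, was lower at 249 CPM in UPTI-high cells and 913 CPM in the others. CXCL2, a neutrophil-attracting chemokine gene, was at 927 CPM in UPTI-high cells and 58.9 CPM in the others.

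Of 18 interferon response genes 9 were higher and 0 lower, with a median of 1.02. MX2, an antiviral GTPase gene, was at 104 CPM in UPTI-high cells and 16.5 CPM in the others, and GBP1, a guanylate-binding protein gene, at 106 CPM in UPTI-high cells and 26.2 CPM in the others. The UPTI-high cells in endothelial-like and muscle-like clusters bear on these values: without them, the log2 ratio was 1.78 for MX2, where all 54 cells gave 2.65, 1.18 for GBP1 (2.02 with all) and 2.58 for CXCL2 (3.98 with all). In that set 6 of 17 interferon genes were at least 2-fold higher, with a median of 0.52.

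Hypoxia, retinoid, stress and secretory genes had smaller shares of higher genes than the signalling lists. Of 22 hypoxia and glycolysis genes 7 were higher and 3 lower, with a median of 0.59, ADM, the adrenomedullin gene, being at 522 CPM in UPTI-high cells and 94.9 CPM in the others. Of 13 retinoid genes 5 were higher and 2 lower, with a median of 0.95; FABP5, a lipid carrier gene, was at 126 CPM in UPTI-high cells and 11.4 CPM in the others (log2 ratio 3.46, and 2.51 with UPTI-high cells of epithelial-like clusters only) and ALDH1A1, a retinaldehyde dehydrogenase gene, at 89.4 CPM in UPTI-high cells and 231 CPM in the others. Of 30 genes of early response and dissociation stress 6 were higher and 1 lower, with a median of 0.32; HSPH1, a heat shock protein gene, was at 498 CPM in UPTI-high cells and 62.4 CPM in the others, and DUSP5, a phosphatase gene of the ERK pathway, at 838 CPM in UPTI-high cells and 119 CPM in the others. Secretory pathway genes gave 3 higher and 2 lower of 33, with a median of 0.14: AGR2 stood alone in size, and SEC11C, a signal peptidase subunit gene, followed at 382 CPM in UPTI-high cells and 91.0 CPM in the others.

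Transport, transcription factor and oestrogen response genes had medians below 0 and members in both directions. Transport genes gave 8 higher and 6 lower of 23, with a median of -0.23, among them CA2, a carbonic anhydrase gene, at 232 CPM in UPTI-high cells and 11.2 CPM in the others, and AQP3, a water and glycerol channel gene, at 16.9 CPM in UPTI-high cells and 64.2 CPM in the others. Epithelial transcription factors gave 8 higher and 8 lower of 32, with a median of -0.14; OVOL1 was at 176 CPM in UPTI-high cells and 29.7 CPM in the others and BHLHE40 at 413 CPM in UPTI-high cells and 79.6 CPM in the others. Oestrogen response genes gave 2 higher and 2 lower of 14, with a median of -0.26. Of 3 measured proliferation genes 1 was higher, with a median of 0.29.

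**Figure D4:**
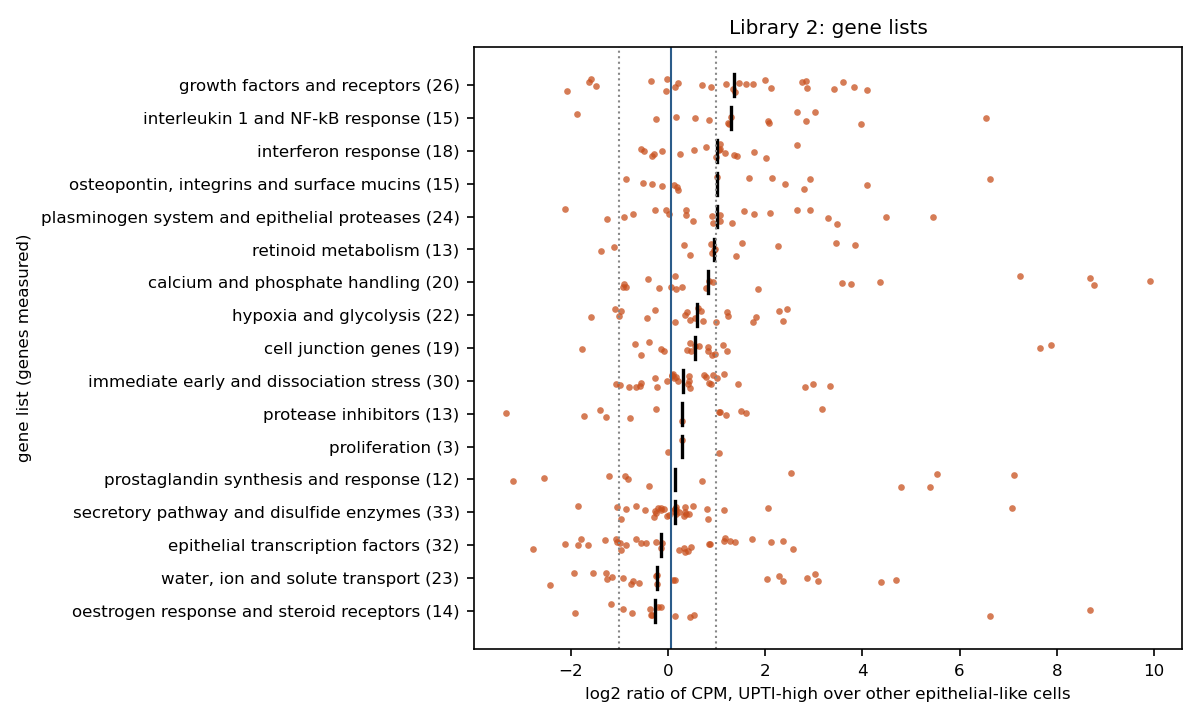
Log2 ratio of UPTI-high over other epithelial-like cells of library 2 for each measured gene (points) of 17 gene lists, with black bars at list medians, a blue line at the median of all 5370 genes (0.073) and dotted lines at a 2-fold difference. Growth factors and receptors have the highest median at 1.36 and oestrogen response genes the lowest at -0.26.

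Set against all 12615 other cells of library 2, 423 of 5718 genes were at least 2-fold higher in UPTI-high cells (7.40%) and 800 at least 2-fold lower (14%). NMU stood at 1751 CPM in UPTI-high cells and 0.983 CPM in all others. VNN2, a pantetheinase gene, was at 1164 CPM in UPTI-high cells and 7.32 CPM in all others, and NOS1, the neuronal nitric oxide synthase gene, at 331 CPM in UPTI-high cells and 2.87 CPM in all others. SPP1 was at 580 CPM in UPTI-high cells and 16.1 CPM in all others and PTGS2 at 382 CPM in UPTI-high cells and 33.7 CPM in all others, and outside the epithelium their highest levels were 210 CPM in macrophage-like cells for SPP1 and 143 CPM in smooth muscle or pericyte-like cells for PTGS2. Across 21 cell classes of both libraries the levels most like those of UPTI were TRPV5 (Pearson r = 0.977), UPK3BL2 (0.975), NMU (0.972), CYP24A1 (0.962) and SFN (0.960), on log2(CPM + 10). These correlations are a description: the classes share libraries, and the UPTI-high class carries most of the range.

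The 5 cells of library 1 shared some of these genes and lacked others. They held 81951 UMIs in sum and were deep, with a median of 12891 UMIs against 6932.5 in the other 226 epithelial-like cells there. CLDN8 had 4, 13, 3, 2 and 11 UMIs in the 5 cells, 403 CPM in sum against 18.2 CPM in the others, a log2 ratio of 4.47 (3.80 to 5.11). S100A2 had 0, 5, 0, 19 and 3 UMIs, 329 CPM in UPTI-high cells against 14.7 CPM in the others. Thus CLDN8 was found in every cell and S100A2 in 3 of 5.

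In library 1 luminal genes again went both ways, while 3 prostaglandin genes were higher. LGALS3 was at 2282 CPM in UPTI-high cells and 331 CPM in the others, with 26 to 55 UMIs in each cell, and its log2 ratio was 2.79 (2.55 to 3.01); in library 2 it was also 2.79. HPGD was at 903 CPM in UPTI-high cells and 48.8 CPM in the others (74 UMIs), PTGES at 134 CPM in UPTI-high cells and 8.30 CPM in the others (11 UMIs) and PLA2G4A at 97.6 CPM in UPTI-high cells and 5.74 CPM in the others (8 UMIs). WNT7A had 10 UMIs, 122 CPM in UPTI-high cells against 2.87 CPM in the others. SULT1E1, another gene of the luminal list, had 7 UMIs, 85.4 CPM in UPTI-high cells against 13.1 CPM in the others. MSX1 was lower at 342 CPM in UPTI-high cells against 631 CPM in the others (log2 ratio -0.88, -1.48 to -0.35), and IHH had 1 UMI, 12.2 CPM in UPTI-high cells against 90.6 CPM in the others. UPK3BL2 and PDZK1IP1 were seen in all 5 cells, at 110 and 122 CPM in UPTI-high cells and 2.23 and 4.47 CPM in the others. HDC, the histamine-forming enzyme gene, was at 671 CPM in UPTI-high cells and 53.6 CPM in the others, with the mast cell receptor gene FCER1A at 0 UMIs. Smooth muscle markers summed to 964 CPM in these 5 cells and 332 CPM in the other epithelial-like cells of library 1, and their part was not tested.

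Other markers were at or near 0 in library 1. SPP1 and STC1 had 0 UMIs in the 5 cells and PTGS2 had 1, where 3 UMIs, the floor used for ratios, equal 36.6 CPM. The 95% interval of 0 UMIs reached 45.0 CPM. AGR2 had 0, 2, 5, 0 and 0 UMIs, 85.4 CPM in UPTI-high cells against 39.2 CPM in the others, a log2 ratio of 1.12 whose interval of -0.22 to 2.21 includes 0. ACP5 and SLPI had 1 UMI each in the 5 cells. In the other epithelial-like cells of library 1 ACP5 was itself at only 4.47 CPM (14 UMIs), while SLPI was at 593 CPM. AQP3 was at 439 CPM in UPTI-high cells against 2432 CPM in the others.

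Between the UPTI-high cells of the 2 libraries UPTI itself was at 22318 CPM in library 2 and 2563 CPM in library 1. CLDN8 was at 415 CPM in library 2 and 403 CPM in library 1, nearly level (log2 ratio 0.045, -0.50 to 0.63). NMU was at 1751 CPM in library 2 and 73.2 CPM in library 1 (4.58, 3.45 to 6.03) and AGR2 at 1355 CPM in library 2 and 85.4 CPM in library 1 (3.99, 2.94 to 5.31). SPP1 had 240 UMIs in library 2 and 0 in library 1, with a lower 95% bound of 3.68 on the log2 ratio. STC1 had 160 UMIs in library 2 and 0 in library 1, with a lower bound of 3.09. PTGS2 had 158 UMIs in library 2 and 1 in library 1, a log2 ratio between 2.47 and 10.28. KRT8 went the other way, at 797 CPM in library 2 and 2111 CPM in library 1. Stage, animal and library preparation cannot be told apart here, and the ribosomal shares given above differed between the libraries in all epithelial-like cells.

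**Figure D5:**
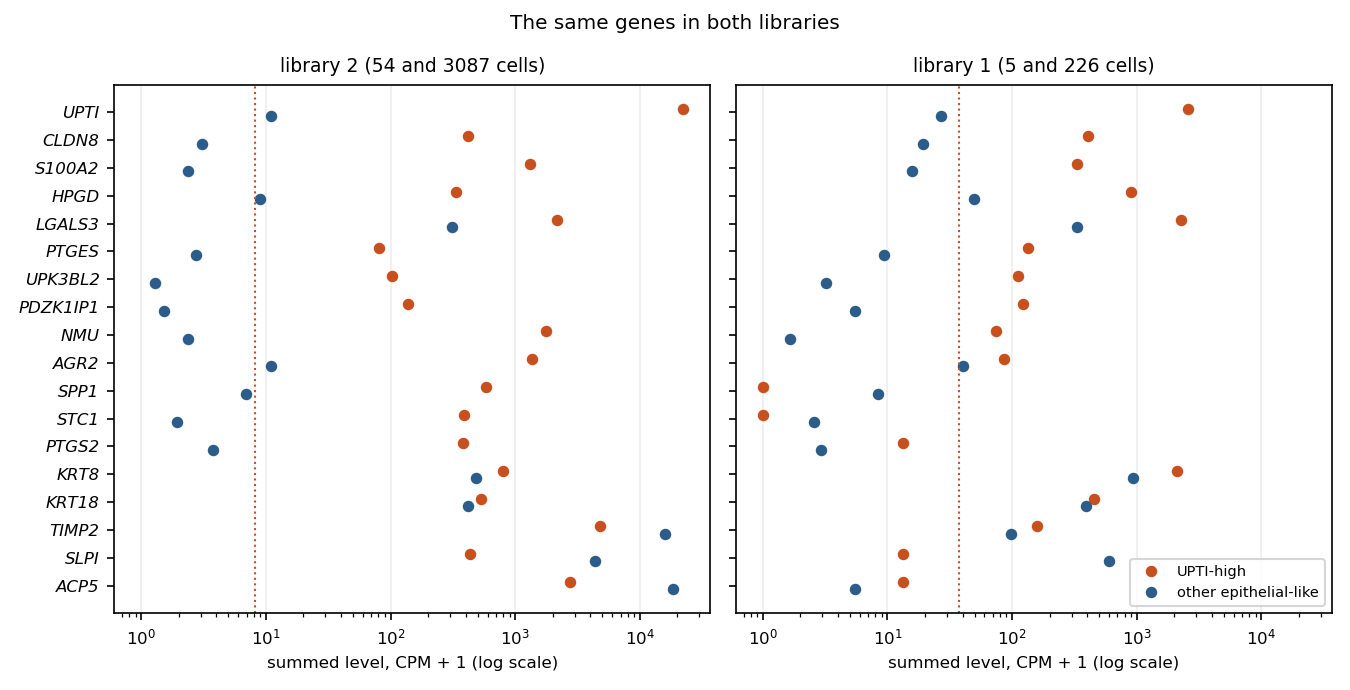
Summed level, as CPM + 1 on a log axis, of 18 genes in UPTI-high cells (orange) and other epithelial-like cells (blue) of library 2 (left, 54 and 3087 cells) and library 1 (right, 5 and 226 cells), with no error bars. Dotted lines mark 3 UMIs in the UPTI-high cells; SPP1, STC1, PTGS2, SLPI and ACP5 of the 5 cells in library 1 lie below theirs, at 36.6 CPM, while CLDN8 is at 415 CPM in library 2 and 403 CPM in library 1.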

How the data were processed

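Droplet libraries of pig endometrium, made with 10x Genomics 3' chemistry per the labels' protocols, were deposited as UMI counts per gene and barcode. Cell Ranger made these counts, as version 6.1.0 per the file headers and 2.1.1 per the submitters' processing notes; the genome build is not given in the sources used here. Each library is 1 sample. Barcodes under 500 UMIs or 200 genes were dropped, Scrublet doublets were removed per library, and cells were clustered (scanpy 1.11.5, igraph 0.11.9; 2000 variable genes, 30 components, 15 neighbours, resolution 1.0, seed 1). Clusters were named from marker lists when at least 3 markers had a mean log2 fold of 0.5 or more over other cells.

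Counts were summed over cells and scaled to 1000000 UMIs (CPM). Intervals are exact Poisson for levels, conditional binomial for ratios and Clopper-Pearson for shares, all at 95%. UMIs within 1 library are not biological replicates, so intervals cover counting error only and no test was run. A ratio against fewer than 3 UMIs was set against 3. Genes needed 20 UMIs and 20 CPM in 1 group. Named genes are the markers given with the rule, the 15 highest and 15 lowest ratios among genes other than UPTI with at least 100 CPM in 1 group, and leading list members with at least 50 CPM. Further list members and markers were named after their values were seen. Members and lists were chosen with earlier results of these data known. Of 26881 identifiers 16128 have no symbol, which hold 27.1% of the UPTI-high cells' UMIs in library 2, and 0 matched the reference name tables. On simulated counts, 100% of genes raised 4-fold and 91% of those lowered 4-fold were recovered in the library 2 comparison of 5370 genes, and 1.55% of unchanged genes were called. The simulation set every gene to at least 20 CPM before the change and drew summed Poisson counts without variation between cells. The highest genes named above lie under 20 CPM in the comparison cells, so it cannot speak for them or for uneven counts among cells. TMM factors came from edgeR 4.0.16. Single values of a few list members are not reported here.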

Additional observations from a re-analysis of the deposited data

Results flagged for a closer look

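For 4 of the 15 lowest genes of library 2 the log2 ratio had the opposite sign in library 1 with counting intervals that leave out 0 in both, and these differences were not tested. RGS17 also had the opposite sign, -3.89 in library 2 and 1.35 in library 1 (3 UMIs), but its library 1 interval of -0.98 to 2.99 includes 0. The log2 ratio of UPTI-high over other epithelial-like cells was -2.84 in library 2 and 2.42 in library 1 (8 UMIs) for DNAJC12, and -2.70 in library 2 and 0.66 in library 1 (26 UMIs) for CES3. It was -2.43 in library 2 and 3.13 in library 1 (40 UMIs) for SLC30A2, and -2.40 in library 2 and 0.99 in library 1 (80 UMIs) for LRATD1. The library 1 values rest on 5 cells. Outside the genes with a symbol, ENSSSCG00025031326 was at 316 CPM in UPTI-high cells of library 2 and 0.327 CPM in other epithelial-like cells, and ENSSSCG00025031630 at 169 CPM in UPTI-high cells and 0.700 CPM in the others.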

How the results depend on the processing

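The 15 highest genes kept their sign under every alternative that gave a value. Other values moved. A rule of 3 UMIs and 0.05% gave a share of 0.560% in library 2. Against other epithelial-like cells, genes at least 2-fold higher and lower numbered 712 and 825 with TMM scaling (59 lower in the lists), 807 and 273 when thinned to 1000 UMIs, where 3295 genes could be read, 516 and 313 with a minimum of 100 UMIs and 50 CPM, and 1483 and 585 with no minimum. With called doublets kept, 493 genes were lower than in all other cells, and the cause was not tested. Alternatives chosen after seeing the data gave 825 lower genes against cluster 19 and 851 against ciliated epithelial-like cells. Against cluster 18 SLPI (0.99), UABP-2 (1.29) and ACP5 (0.23) turned higher, against cluster 19 UABP-2 (0.063) and SAL1 (0.036), and against cluster 21 CES3 (0.039) and SAL1 (0.96). Without thinning, SPP1, PTGS2, STC1, AGR2 and CLDN8 had a UMI in 57.4, 64.8, 66.7, 83.3 and 64.8% of UPTI-high cells, and thinned to 2000 UMIs PTGS2, AGR2 and CLDN8 in 48.8, 80.5 and 48.8%, since more UMIs per cell were read. No paired analysis was possible because each group is 1 library, and for the same reason no replicate could be left out. Gene counts were not made for library 1, where the floor of 3 UMIs in the 5 cells equals 36.6 CPM.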
